A study of Mus musculus with 4 samples.

Results

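The large ribosomal subunit assembly factors are 43 proteins that build the 60S particle in the nucleolus, together with a few abundant nucleolar proteins. They are described here in uninduced and DMSO-induced MEL cells. They were chosen by name, from their known role, as the loci of the deposited expression table that carry one of 43 gene symbols. Earlier results of these data were known at that point, so the counts below do not come from a blind choice. All 43 were found among 47935 loci. A locus of their own, with 1 symbol, was held by 36 of them, and 7 (Ppan, Rpf2, Gnl3, Rsl24d1, Mdn1, Wdr74 and Ncl) lay in loci that also carry other symbols. Rpf1 had 2 loci, so that 37 loci with 1 symbol entered the counts and medians, and the 7 shared loci are given apart.

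MEL is an established mouse erythroleukemia cell line, which DMSO can drive into erythroid-like differentiation. Total RNA depleted of ribosomal RNA was sequenced from 2 DMSO-induced samples, grown with 1.5% DMSO, and 2 uninduced samples in the same medium. No genetic change was labelled in either group, and the sources used here do not give the time in DMSO. Below, before and after induction stand for the uninduced and the induced samples, which are not stated to come from the same cultures. Since no label describes the replicates as separate cultures, the tests below rest on the spread of these 4 libraries, and that spread may be technical. Levels are given in FPKM, that is, fragment counts divided by transcript length and by library size, and a lower value in a bulk sample cannot tell fewer expressing cells apart from less RNA per cell.

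A large subunit is assembled on a precursor RNA that also holds spacer sequences, with the help of many factors that are not part of the finished ribosome. Scaffold proteins fold the early particle, RNA helicases and methyltransferases remodel and mark the RNA, GTPases and AAA ATPases license and release intermediates, and a nuclease complex cuts away the internal spacer ITS2. Many of these factors are known targets of growth control, and red cell precursors stop making ribosomes late in their maturation.

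After induction most of the large-subunit assembly factors had lower transcript levels. Of the 37 loci with 1 symbol, 25 fell at a limma adjusted p under 0.05 and none rose, against 14.7% of all 12890 loci tested that fell. The remaining 12 did not pass. The median log2 fold change of the 37 was -1.40, against 0.03 for all loci, on the log2(FPKM + 1) scale used throughout. Both induced values lay below both uninduced values for 31 of the 37, where 34.7% of all loci did so. The 37 loci summed to 1185 and 938.5 FPKM in the induced samples and 2898 and 2252 FPKM in the uninduced samples. Npm1 alone made up 30.3% and 21.9% of that sum in the induced and 27.8% and 19.1% in the uninduced samples, and without it the sums were 826.1 and 733.4 against 2093 and 1822 FPKM. Median levels over the members were 20.02 and 16.26 FPKM after induction, against 49.26 and 40.56 FPKM before.

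The count of falls depended on which libraries were used, while the median kept its sign. When the filter on low values was applied to the 3 samples left, 17 members fell without induced replicate 1, 0 without induced replicate 2, 22 without uninduced replicate 1 and 27 without uninduced replicate 2. On the 12890 loci of the 4-sample filter the counts were 10, 0, 0 and 0. The members' median stayed between -1.56 and -1.26 in all of these fits. With no filter on low values, 26323 loci were fitted, 0 members fell and 30 loci were called in all. The members' median was -1.40 in that fit as well. The limma adjusted p was then 0.0568 for Wdr12 and 0.120 for Brix1, against 0.0113 and 0.0456 in the fit with the filter. Replicate 2 read lower than replicate 1 for 30 of the 37 loci in the induced samples (median log2 difference -0.36) and for 32 of 37 in the uninduced samples (-0.21), where 46.3% and 56.7% of all loci did so. The part of this in the counts was not tested.

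**Figure D1:**
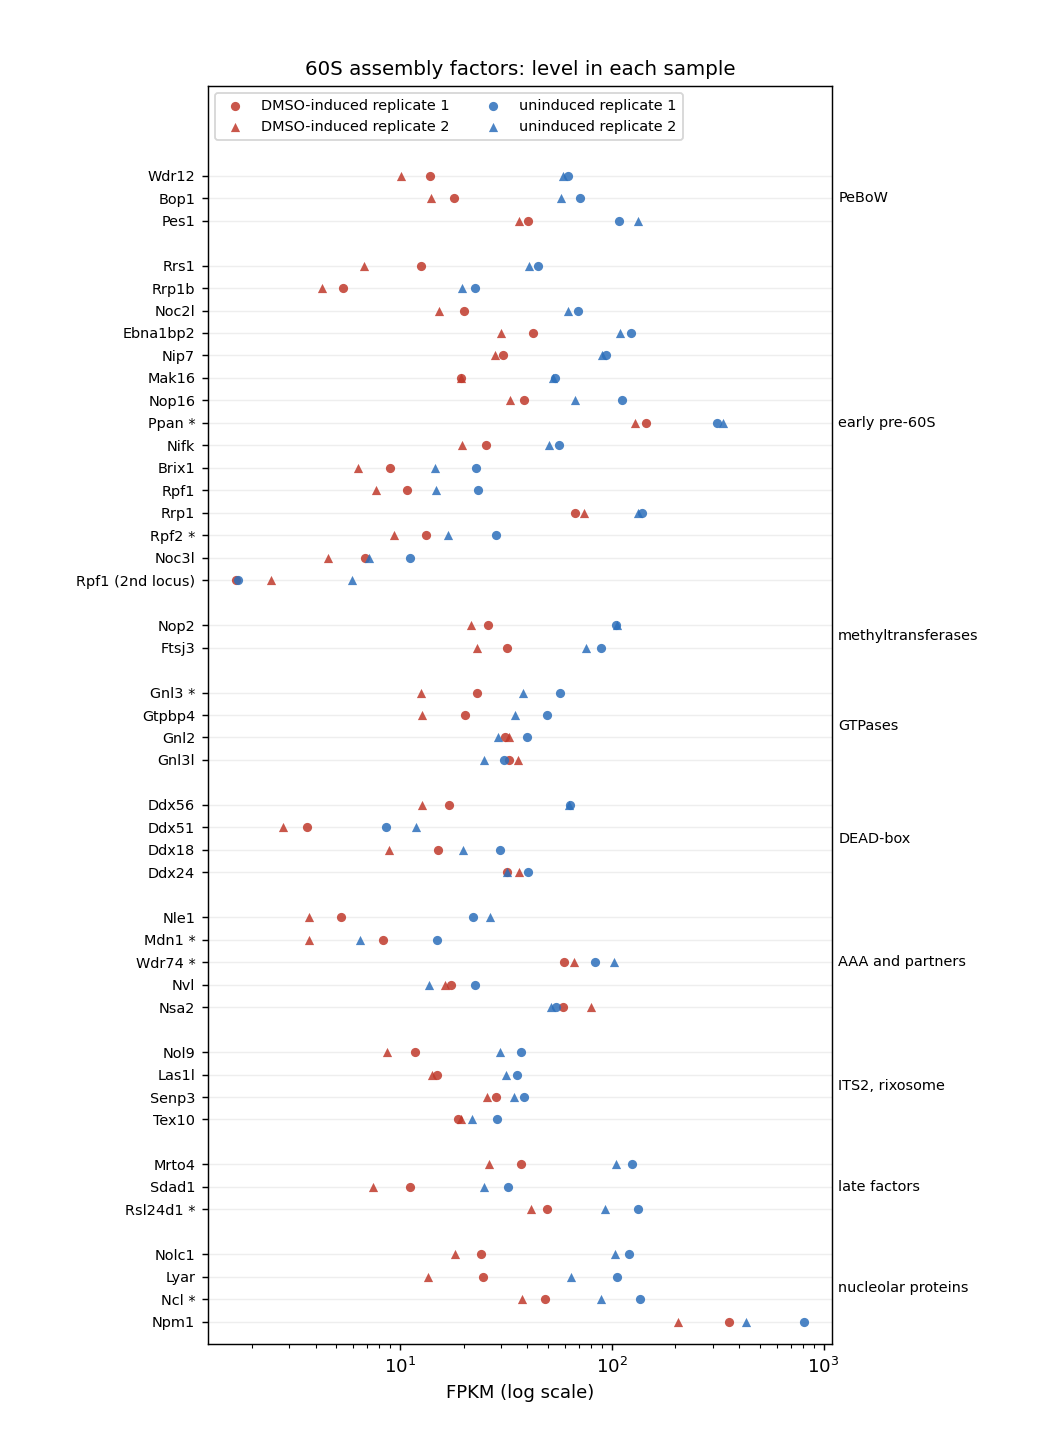
FPKM of each large-subunit assembly factor (rows, grouped by role) in the 2 DMSO-induced (red) and 2 uninduced (blue) samples on a log axis, with circles for replicate 1 and triangles for replicate 2. Asterisks mark loci shared with other symbols. Red symbols lie left of blue ones in most rows, and Gnl3l and Nsa2 show them on the right.

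The label of the cells was checked against marker genes. All 10 erythroid markers reached 1 FPKM in at least 1 sample, while Slc4a1 stood at 0.49 and 0.56 FPKM in uninduced samples. Their summed level was 58881.52 and 112564.89 FPKM in induced and 1356.83 and 1774.13 FPKM in uninduced samples. The globins Hba-a1 and Hbb-bs made up most of each sum. Markers of T cells, B cells, granulocytes and macrophages, fibroblasts and epithelia with loci of their own, 21 in all, summed to 1.73 FPKM or less per list and sample. Of these only Cd79b and Krt8 reached 1 FPKM, in uninduced samples, and Cd8a, Ms4a1, Elane and Dcn were listed at 0 throughout. Lck, whose locus also carries a microRNA, stood at 2.96 and 3.26 FPKM after induction and 7.57 and 11.77 FPKM before.

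Promoter sequences of the members were read, and some with the letters CACGTG are shown. This palindrome is the core of the E-box bound by MYC and related factors, known regulators of ribosome synthesis. Whether such factors play a part in the changes described here was not tested. RefSeq promoters on GRCm38.p6 were found for 36 of the 43 members. The window of 300 bases, from 250 before to 50 after the start, held CACGTG in 7 of the 36 (19.4%), in 12.2% of 7204 genes with a tested locus of their own and in 8.09% of all 27025 genes in the table. Among members that fell, here with genes in shared loci counted by the call of that locus, 4 of 26 had it. Among those that did not pass, 3 of 10 had it. Of the sequences below, which run from 250 bases before to 30 bases from the start, Nop2, Pes1, Nle1 and Sdad1 belong to genes that fell and Tex10 to one that did not pass. Capitals mark CACGTG, which begins 60 bases before the start in Nop2 (chr6:125131633-125131912, plus strand), 2 bases after it in Pes1 (chr11:3963725-3964004, plus strand), 23 after it in Nle1 (chr11:82908366-82908645, minus strand), 21 after it in Sdad1 (chr5:92309995-92310274, minus strand) and 3 before it in Tex10 (chr4:48473434-48473713, minus strand).
Nop2: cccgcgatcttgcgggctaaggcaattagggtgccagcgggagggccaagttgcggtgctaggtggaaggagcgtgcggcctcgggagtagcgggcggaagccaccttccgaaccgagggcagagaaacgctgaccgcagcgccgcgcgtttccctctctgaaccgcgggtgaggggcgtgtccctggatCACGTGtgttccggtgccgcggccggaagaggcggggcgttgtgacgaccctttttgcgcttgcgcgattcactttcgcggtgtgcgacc
Pes1: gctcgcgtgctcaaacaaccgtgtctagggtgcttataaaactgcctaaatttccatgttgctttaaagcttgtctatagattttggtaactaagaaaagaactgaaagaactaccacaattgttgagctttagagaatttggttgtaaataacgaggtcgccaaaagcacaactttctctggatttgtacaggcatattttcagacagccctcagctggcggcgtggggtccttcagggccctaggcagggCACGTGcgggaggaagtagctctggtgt
Nle1: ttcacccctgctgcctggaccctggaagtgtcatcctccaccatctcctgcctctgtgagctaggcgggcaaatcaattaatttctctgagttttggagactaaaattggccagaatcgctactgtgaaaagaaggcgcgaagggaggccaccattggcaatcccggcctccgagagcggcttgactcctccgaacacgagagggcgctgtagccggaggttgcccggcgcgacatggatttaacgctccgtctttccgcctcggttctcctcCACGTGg
Sdad1: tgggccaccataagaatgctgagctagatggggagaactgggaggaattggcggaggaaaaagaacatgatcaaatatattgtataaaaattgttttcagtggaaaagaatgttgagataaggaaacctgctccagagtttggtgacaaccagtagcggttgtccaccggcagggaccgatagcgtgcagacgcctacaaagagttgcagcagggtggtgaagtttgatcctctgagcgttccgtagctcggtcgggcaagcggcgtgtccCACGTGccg
Tex10: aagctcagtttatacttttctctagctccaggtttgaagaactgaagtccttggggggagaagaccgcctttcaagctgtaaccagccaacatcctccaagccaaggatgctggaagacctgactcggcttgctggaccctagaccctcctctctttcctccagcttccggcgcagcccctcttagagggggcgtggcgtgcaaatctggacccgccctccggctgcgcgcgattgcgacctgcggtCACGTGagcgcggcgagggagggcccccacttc
The printed Sdad1 window lies wholly inside the gene as GENCODE places it (92284010 to 92310479), downstream of the GENCODE start. The other 2 members with the motif were Mdn1 and Rpf2, both in shared loci. Searched on both strands in the same way, CACGCG, which can overlap its own reverse complement, was present in 16 of 36 members (44.4%) and 21.5% of tested genes, with matches allowed to overlap those of other motifs, and CCGGAAG, an ETS-type core, in 14 (38.9%) and 22.6%. CCAAT was found in 10 members (27.8%) and 43.9% of tested genes, and TATAAA in 4 (11.1%) and 7.68%. Of the 26 members that fell, 12 had CACGCG, 9 CCGGAAG, 6 CCAAT and 3 TATAAA. Of the 10 that did not pass, 4 had CACGCG, 5 CCGGAAG, 4 CCAAT and 1 TATAAA. A match is a description of these letters in this window and not a shown binding site.

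The PeBoW complex fell in full. Its 3 proteins act together in cutting the precursor of 28S rRNA, with Bop1 joining the other partners. Wdr12 (chromosome 1, 60069785 to 60098645) had 13.94 and 10.11 FPKM in induced samples, against 62.19 and 58.79 FPKM in uninduced samples. The groups were far apart (log2 fold change -2.25 ± 0.22, SE, limma adjusted p = 0.0113). Pes1 (chromosome 11, 3963975 to 3980004), the most abundant of the complex, had 40.26 and 36.56 FPKM after induction and 107.65 and 132.68 FPKM before (-1.61 ± 0.20, limma adjusted p = 0.0137). Bop1 (chromosome 15, 76452989 to 76477277) measured 18.01 and 14.03 FPKM after induction and 70.52 and 57.92 FPKM before (-1.94 ± 0.22, limma adjusted p = 0.0128). The order of levels per length, Pes1 above Bop1, was the same in all 4 samples, and Pes1 stood at 2.89 and 3.62 times the level of Wdr12 in induced and 1.73 and 2.26 times in uninduced samples.

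Early scaffold and RNA-binding factors fell in 10 of 13 loci and none rose, where 14.7% of all loci tested fell and 11.5% rose. These proteins join the particle in the nucleolus, and several are known from yeast by their partners: Rrs1 works with Rpf2 to dock the 5S RNA, Ebna1bp2 is the counterpart of Ebp2, a partner of Brx1, and Noc2l and Noc3l form a pair in transport of the particle. Rrs1 (chromosome 1, 9545408 to 9547455) had the most negative change of the group, with 12.61 and 6.77 FPKM in induced and 44.87 and 40.56 FPKM in uninduced samples (-2.09 ± 0.31, limma adjusted p = 0.0173). Rrp1 (chromosome 10, 78400384 to 78413043), the most abundant locus of the group with 1 symbol, had 67.22 and 73.79 FPKM in induced and 139.64 and 133.26 FPKM in uninduced samples (-0.94 ± 0.18, limma adjusted p = 0.0257). Its paralogue Rrp1b, a nucleolar protein that also binds protein phosphatase 1, measured 5.38 and 4.28 FPKM after induction and 22.70 and 19.73 FPKM before (-1.93 ± 0.22, limma adjusted p = 0.0128). Both paralogues fell, and the level of Rrp1 was 12.5 and 17.2 times that of Rrp1b in induced and 6.15 and 6.75 times in uninduced samples.

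The other early factors that fell were Noc2l, Ebna1bp2, Nip7, Mak16, Nop16, Nifk and Brix1, with log2 fold changes between -1.85 (Noc2l) and -1.17 (Brix1). Mak16 was the steadiest of them, at 19.39 and 19.35 FPKM in induced and 53.90 and 52.83 FPKM in uninduced samples (-1.42 ± 0.18, limma adjusted p = 0.0134). Nop16 had 38.55 and 33.15 FPKM in induced samples, against 112.28 and 66.80 FPKM in uninduced samples, the widest spread between replicates of these genes on the FPKM scale (-1.25 ± 0.30, limma adjusted p = 0.039), and it did not pass under quantile normalization (adjusted p = 0.0514) or when samples were scaled on sums that leave out globins and the 10 most abundant loci (0.0663). Noc3l had 6.87 and 4.57 FPKM in induced and 11.13 and 7.13 FPKM in uninduced samples. Its groups did not overlap, by a narrow margin, and it did not pass (-0.58 ± 0.31, limma adjusted p = 0.209), while its partner Noc2l fell by 1.85 on the log2 scale.

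Brix1, Ppan, Rpf1 and Rpf2 share the Brix domain, an RNA-binding fold of ribosome assembly. Brix1 (chromosome 15, 10474779 to 10485947) had 8.99 and 6.37 FPKM in induced and 22.81 and 14.69 FPKM in uninduced samples (-1.17 ± 0.30, limma adjusted p = 0.0456), and it did not pass under scaling without the most abundant loci (adjusted p = 0.077) or with a pseudocount of 0.1 (0.0505). The main Rpf1 locus had 10.83 and 7.72 FPKM in induced and 23.28 and 14.77 FPKM in uninduced samples and did not pass (-0.95 ± 0.30, limma adjusted p = 0.0753). With the replicate number as a block it did (limma adjusted p = 0.0287), although same-numbered replicates are not stated to be paired. The second locus with the Rpf1 symbol spans the same stretch of chromosome 3, so how reads were split between them is uncertain, and it was low, at 1.69 and 2.45 FPKM after induction and 1.72 and 5.96 FPKM before, and its groups overlapped (-0.51 ± 0.48, limma adjusted p = 0.452). Among shared loci, that of Ppan and Gm24067 was the highest of the early factors, with 144.86 and 128.77 FPKM in induced and 314.86 and 334.45 FPKM in uninduced samples (-1.24 ± 0.20, limma adjusted p = 0.0186). The locus of Rpf2 and Gtf3c6, a subunit of the RNA polymerase III factor TFIIIC, had 13.24 and 9.40 FPKM against 28.48 and 16.78 FPKM (-0.91 ± 0.33, limma adjusted p = 0.0963, and 0.0325 with the replicate block). The share of each gene in these loci cannot be read from the table.

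Both methyltransferases of the large rRNA fell. Nop2, which methylates a cytosine of 28S rRNA, lies on chromosome 6 (125131909 to 125144753). Its promoter is the first of those printed above. It had 26.03 and 21.58 FPKM in induced samples, against 104.77 and 105.92 FPKM in uninduced samples (-2.11 ± 0.19, limma adjusted p = 0.0106). Ftsj3, the counterpart of the yeast 2'-O-methyltransferase Spb1, had 32.04 and 23.19 FPKM after induction and 88.71 and 75.25 FPKM before (-1.55 ± 0.24, limma adjusted p = 0.0177). Nop2 lay above Ftsj3 in both uninduced samples and below it in both induced samples, at 0.812 and 0.931 times its level after induction and 1.18 and 1.41 times before.

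Of the 3 GTPases with loci of their own, 1 fell and 2 did not pass. Gtpbp4, the counterpart of yeast Nog1 (chromosome 13, 8966331 to 8996083), had 20.36 and 12.69 FPKM in induced samples, against 49.26 and 35.07 FPKM in uninduced samples (-1.32 ± 0.31, limma adjusted p = 0.0373), and it did not pass when samples were scaled on sums that leave out globins and the 10 most abundant loci (adjusted p = 0.0613). Gnl2, the counterpart of yeast Nog2 (chromosome 4, 125016585 to 125055380), had 31.44 and 32.57 FPKM in induced and 39.66 and 29.09 FPKM in uninduced samples. The groups overlapped, and the log2 fold change was near 0 (-0.08 ± 0.22, limma adjusted p = 0.794; 95% interval -0.66 to 0.49), and the sign turned under quantile normalization and under scaling without the most abundant loci. Gnl3l (chromosome X, 150983141 to 151017322), a paralogue of nucleostemin, had 32.69 and 36.29 FPKM in induced and 31.14 and 25.04 FPKM in uninduced samples. Its induced values were the higher ones by a small step, and it did not pass (0.29 ± 0.21, limma adjusted p = 0.326; 95% interval -0.23 to 0.82). The locus of Gnl3, nucleostemin itself, also holds the small nucleolar RNA Snord19. It had 23.24 and 12.54 FPKM after induction and 56.72 and 38.15 FPKM before (-1.39 ± 0.36, limma adjusted p = 0.0474), and it did not pass under quantile normalization (0.0602), with a pseudocount of 0.1 (0.0546) or under scaling without the most abundant loci (0.0734). Gtpbp4 was above Gnl3l in both uninduced samples, where Gnl3l stood at 0.632 and 0.714 times its level, and below it after induction, at 1.61 and 2.86 times.

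Of the 4 DEAD-box helicases, enzymes that unwind or remodel the precursor RNA, 2 fell. Ddx56 (chromosome 11, 6258919 to 6267772), the counterpart of yeast Dbp9, had 17.08 and 12.73 FPKM in induced and 63.51 and 62.96 FPKM in uninduced samples (-2.03 ± 0.22, limma adjusted p = 0.0126). Ddx51, the counterpart of Dbp6, was the lowest of the 4, with 3.64 and 2.80 FPKM after induction and 8.56 and 11.93 FPKM before (-1.40 ± 0.26, limma adjusted p = 0.0224). Ddx18, the counterpart of Has1, had 15.14 and 8.92 FPKM in induced and 29.63 and 19.87 FPKM in uninduced samples, which did not overlap. It did not pass (-1.0 ± 0.34, limma adjusted p = 0.0837), although it did with the replicate block (0.0253), a pairing that the labels do not state. Ddx24 (chromosome 12, 103407982 to 103425830), the counterpart of Mak5, had 32.04 and 36.43 FPKM in induced and 40.36 and 32.18 FPKM in uninduced samples. Its values overlapped (-0.08 ± 0.21, limma adjusted p = 0.805; 95% interval -0.61 to 0.46), and the sign turned under quantile normalization and under scaling without the most abundant loci. Ddx24 stood at 1.88 and 2.86 times the level of Ddx56 after induction and at 0.636 and 0.511 times before.

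**Figure D2:**
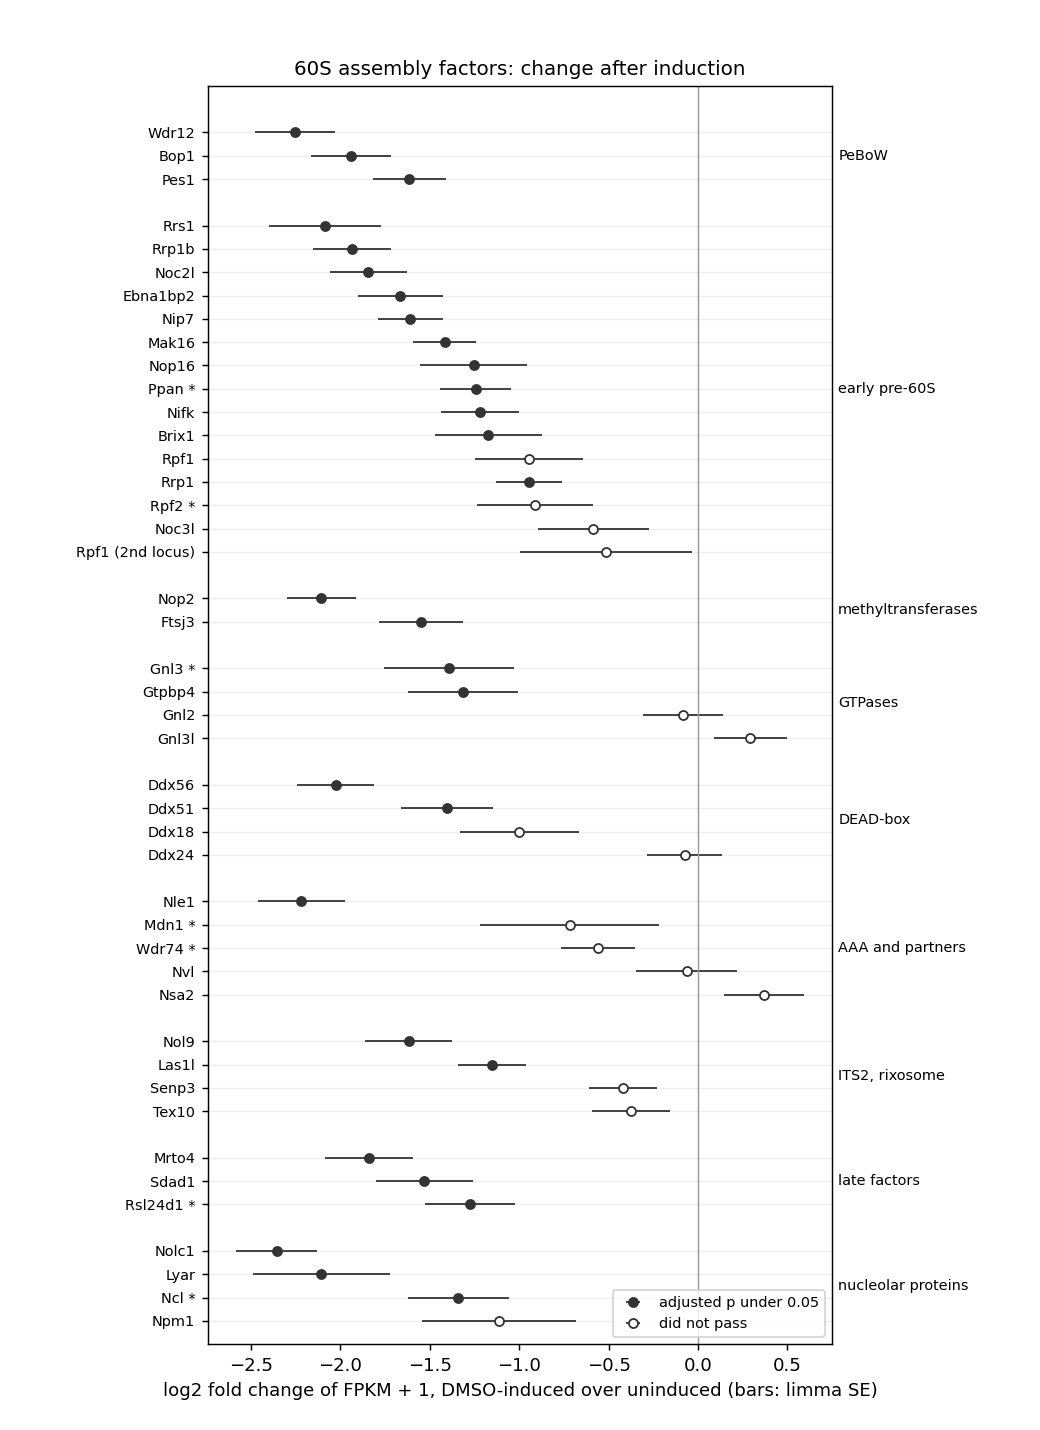
Log2 fold change of FPKM + 1, DMSO-induced over uninduced, with limma's SE, for each large-subunit assembly factor grouped by role. Filled points passed an adjusted p of 0.05 and open ones did not; asterisks mark shared loci. Filled points run between -2.36 (Nolc1) and -0.94 (Rrp1), and Gnl3l and Nsa2 are the 2 loci right of 0.

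Among the AAA ATPases and the factors they act on, 1 of 3 loci with 1 symbol fell. Nle1 (chromosome 11, 82900768 to 82908411), the counterpart of yeast Rsa4 that the giant ATPase Mdn1 pulls off the particle, had 5.26 and 3.72 FPKM in induced samples, against 22.06 and 26.73 FPKM in uninduced samples (-2.22 ± 0.24, limma adjusted p = 0.0128). Nvl (chromosome 1, 181087138 to 181144204), the counterpart of Rix7, had 17.34 and 16.26 FPKM after induction, which lay within the 22.58 and 13.67 FPKM of the uninduced samples (-0.06 ± 0.28, limma adjusted p = 0.878; 95% interval -0.79 to 0.66). The sign for Nvl turned under scaling without the most abundant loci. Nsa2 (chromosome 13, 97129424 to 97137937), which contacts Rsa4 in the yeast particle, had 59.18 and 80.20 FPKM in induced and 54.51 and 51.88 FPKM in uninduced samples. Both induced values were the higher ones, the opposite order to most members, and the difference did not pass (0.37 ± 0.22, limma adjusted p = 0.263; 95% interval -0.20 to 0.94). Nsa2 stood at 11.2 and 21.6 times the level of Nle1 in induced and at 2.47 and 1.94 times in uninduced samples.

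The loci of Mdn1 and of Wdr74 are shared. That of Mdn1 and Casp8ap2, a gene that is also needed for histone transcript processing, had 8.36 and 3.72 FPKM in induced and 14.98 and 6.48 FPKM in uninduced samples. The groups overlapped and replicate 2 was the lower one in each (-0.72 ± 0.50, limma adjusted p = 0.323). The locus of Wdr74, which Nvl releases from the particle, also carries Stx5a and 1700092M07Rik, and had 59.27 and 66.15 FPKM against 83.57 and 102.90 FPKM (-0.56 ± 0.21, limma adjusted p = 0.102).

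Of the 4 loci for spacer removal and the rixosome, 2 fell and 2 did not pass. All 4 had lower values in the induced samples without overlap, as did 34.7% of all loci tested. Las1l is the nuclease that cuts ITS2 and Nol9 the kinase that works beside it, and both fell. Nol9 (chromosome 4, 152039321 to 152061494) had 11.75 and 8.71 FPKM in induced and 37.16 and 29.59 FPKM in uninduced samples (-1.62 ± 0.24, limma adjusted p = 0.0169). Las1l (chromosome X, 95935335 to 95956962) had 15.01 and 14.13 FPKM after induction and 35.71 and 31.65 FPKM before (-1.15 ± 0.19, limma adjusted p = 0.0192). The SUMO protease Senp3 (chromosome 11, 69673115 to 69682084) and the scaffold Tex10 (chromosome 4, 48430858 to 48473459), which belong to the attached rixosome, did not pass. Senp3 had 28.30 and 25.83 FPKM in induced and 38.72 and 34.41 FPKM in uninduced samples (-0.42 ± 0.19, limma adjusted p = 0.154). Tex10 had 18.85 and 19.48 FPKM in induced and 28.86 and 21.86 FPKM in uninduced samples (-0.37 ± 0.22, limma adjusted p = 0.245). The 95% interval of Senp3 was -0.90 to 0.06 and that of Tex10 -0.93 to 0.18, and differences in change between these genes were not tested. Nol9 stood at 0.623 and 0.447 times the level of Tex10 in induced and at 1.29 and 1.35 times in uninduced samples, and Las1l at 0.530 and 0.547 times that of Senp3 after induction and 0.922 and 0.920 times before.

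**Figure D3:**
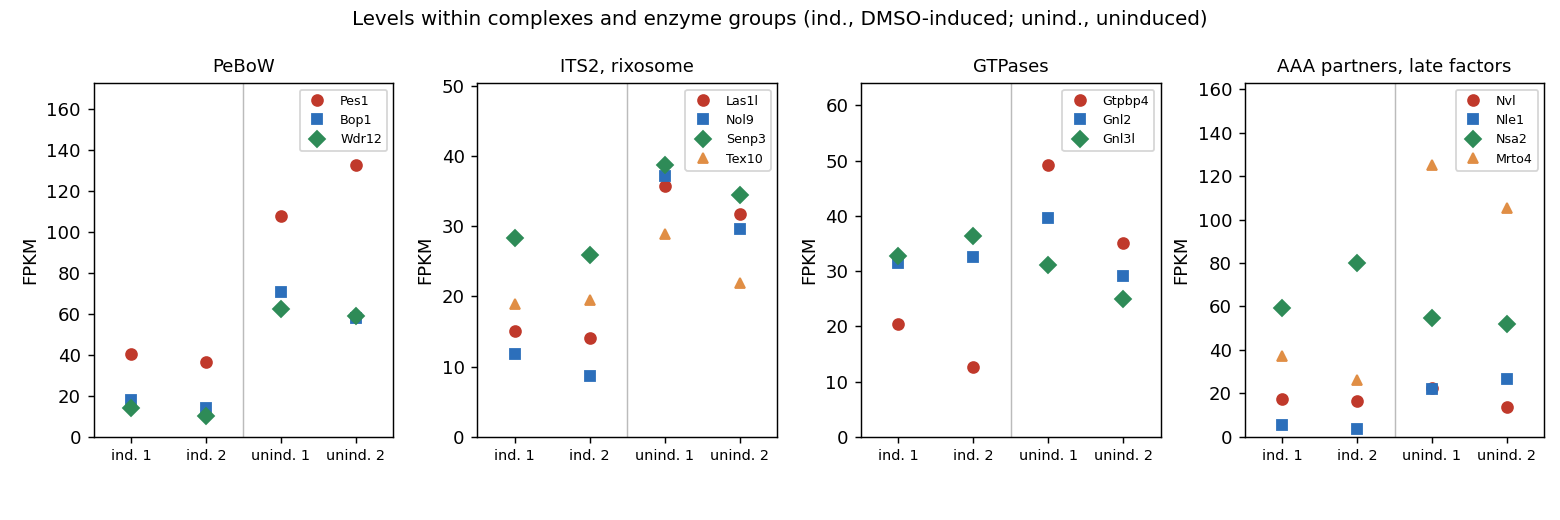
FPKM in each sample for members of 4 groups: PeBoW, ITS2 processing and rixosome, GTPases, and AAA partners with late factors, with the 2 DMSO-induced samples left of the 2 uninduced samples. Gtpbp4 lies below Gnl3l, Nol9 below Tex10 and Mrto4 below Nsa2 in induced samples, and each lies above that gene in uninduced samples. These pairs were picked by hand.

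Late and stalk-linked factors fell in both loci with 1 symbol. Mrto4 (chromosome 4, 139347435 to 139352576), which holds the place of the stalk protein P0 until late in assembly, had 37.38 and 26.24 FPKM in induced samples, against 125.19 and 105.26 FPKM in uninduced samples (-1.84 ± 0.25, limma adjusted p = 0.0147). Rplp0, the transcript of P0 itself, did not pass (0.13 ± 0.31, limma adjusted p = 0.776). Sdad1, the counterpart of yeast Sda1, had 11.14 and 7.5 FPKM after induction and 32.32 and 24.84 FPKM before (-1.53 ± 0.27, limma adjusted p = 0.0213). Rsl24d1, the counterpart of the yeast placeholder Rlp24, lies in a locus with Khdc3 and Gm20509 that had 49.61 and 41.53 FPKM in induced and 133.05 and 92.83 FPKM in uninduced samples (-1.27 ± 0.25, limma adjusted p = 0.0262).

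Of the nucleolar proteins with loci of their own, Nolc1 and Lyar fell and Npm1 did not pass. Nolc1 (chromosome 19, 46075863 to 46085530), a chaperone of small nucleolar ribonucleoproteins, had the most negative log2 fold change of the members on the log2(FPKM + 1) scale, while Nle1 was more negative under quantile normalization (-2.18, against -2.17 for Nolc1) and with a pseudocount of 0.1 (-2.43 against -2.41). It had 24.27 and 18.19 FPKM in induced and 120.14 and 104.09 FPKM in uninduced samples (-2.36 ± 0.22, limma adjusted p = 0.0106), rank 305 among the 12890 loci ordered by log2 fold change. Lyar (chromosome 5, 38220470 to 38234306), a nucleolar zinc finger protein of growing cells, had 24.68 and 13.58 FPKM after induction and 105.46 and 64.19 FPKM before (-2.11 ± 0.38, limma adjusted p = 0.0223). Npm1 (chromosome 11, 33152287 to 33163206), nucleophosmin, was the most abundant member in every sample, at 358.42 and 205.09 FPKM in induced and 805.44 and 429.74 FPKM in uninduced samples. Its groups did not overlap, and replicate 2 was well below replicate 1 in each (-1.11 ± 0.43, limma adjusted p = 0.113, 95% interval -2.22 to -0.01). Npm1 passed with the replicate block (limma adjusted p = 0.0242), although same-numbered replicates are not stated to be paired. Npm1 also has many processed copies in the genome, so its value is uncertain. The locus of Ncl, nucleolin, which holds Snora75 and a microRNA as well, had 48.51 and 37.64 FPKM against 135.49 and 88.84 FPKM (-1.34 ± 0.28, limma adjusted p = 0.0296), and did not pass under scaling without the most abundant loci (0.0508).

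Other genes of the same pathway were lower too. Of 26 further large-subunit factors, 23 had a locus of their own that was tested, and 12 of these fell while 11 did not pass and none rose. Their median log2 fold change was -0.83, against 0.03 for all loci tested, of which 14.7% fell and 11.5% rose. The most changed was Mybbp1a, a nucleolar MYB-binding protein, with 18.26 and 13.24 FPKM in induced and 95.80 and 105.20 FPKM in uninduced samples (-2.61 ± 0.23, limma adjusted p = 0.00966). The most abundant that fell was Eif6, the factor that keeps the new subunit from joining too early, with 66.67 and 58.35 FPKM in induced and 183.53 and 167.09 FPKM in uninduced samples (-1.48 ± 0.19, limma adjusted p = 0.0144).

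Factors of the small subunit act on the same precursor RNA. Of 43 tested loci of the small-subunit processome, 29 fell (67.4%) and none rose, with a median of -1.20, where 67.6% of the large-subunit members fell. Over all loci tested, 14.7% fell, 11.5% rose and the median was 0.03. Rrp9 had the most negative change of that list (-2.78 ± 0.23, limma adjusted p = 0.00871), and Imp3 was its most abundant fallen member (-1.21 ± 0.19, limma adjusted p = 0.018). The proteins that the large-subunit factors assemble gave other values. Of 46 genes for large ribosomal subunit proteins, 32 had a locus of their own that was tested. None of the 32 was called by limma, and 0 had an unadjusted p under 0.05. Their log2 fold changes lay between -0.46 (Rplp1) and 0.62 (Rpl23), with a median of 0.08. Genes of ribosomal proteins have many near-identical processed copies, so single values are uncertain. Replicate 2 read higher than replicate 1 for all 32 in the induced samples (median log2 difference 0.37) and was lower for 4 of 32 in the uninduced samples, the opposite of the large-subunit factors. Differences between these lists were not tested.

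**Figure D4:**
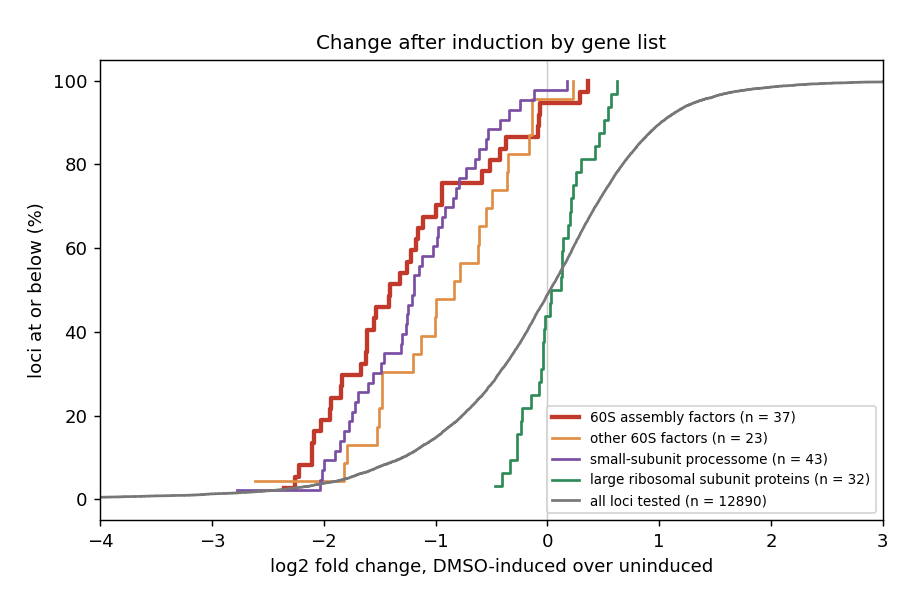
Cumulative share of loci (%) at or below each log2 fold change, DMSO-induced over uninduced, for the 37 large-subunit assembly factor loci, 23 other 60S factors, 43 small-subunit factors, 32 large ribosomal subunit proteins and all 12890 loci. The axis of fold changes does not show the extremes of all loci. The curves of the assembly factors lie left of 0 for most of their length, with a median of -1.40 for the members, and the ribosomal proteins stay within -0.46 and 0.62.

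The members differed among themselves in ways that went along with base composition, which the choice of genes had not used. Across the 37 loci the log2 fold change correlated with the GC content of the longest matched GENCODE M21 transcript (Pearson r = -0.45, Spearman rho = -0.48), and across 10774 loci with a matched transcript r was -0.19 and rho -0.22. Members with at least 50% GC fell in 14 of 16 loci with a median of -1.84, and those under 50% in 11 of 21 with a median of -1.15. Among all loci with a transcript, 17.8% of those at or above 50% GC fell, against 8.62% of the others. Among the loci that lay off this trend were Wdr12, at 40.4% GC, Ddx24, at 52.5%, and Senp3, at 54.0%. With transcript length the correlation was 0.07 for the members. With the uninduced level, which also enters the fold change, it was -0.36 for the members and -0.29 for all loci tested. Loci within a sample share its library and are not independent replicates, and in all loci GC content also went along with the difference between replicates (r = 0.39 in uninduced and 0.20 in induced samples). For the 37 member loci the same correlation was 0.16 in uninduced and -0.14 in induced samples. The part of base composition in the members' changes was not tested.

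**Figure D5:**
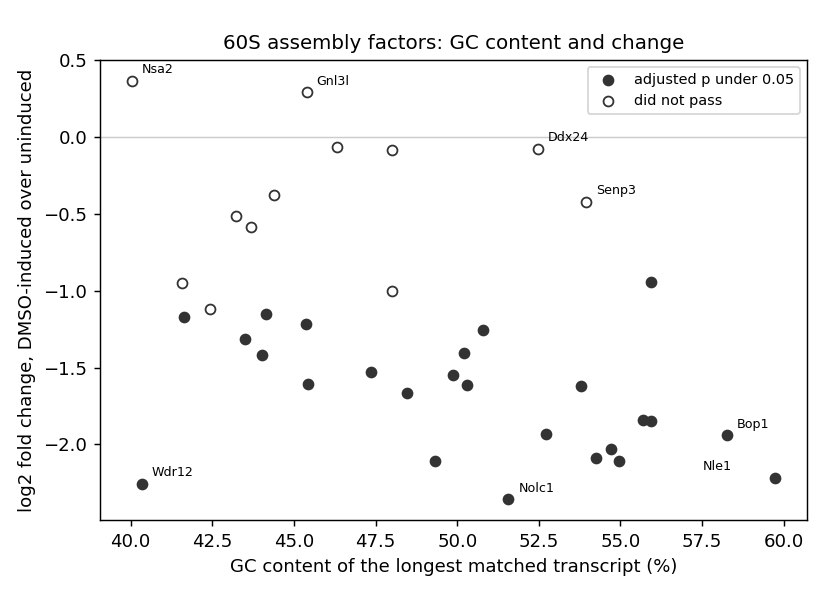
Log2 fold change, DMSO-induced over uninduced, against the GC content (%) of the longest matched transcript for the 37 large-subunit assembly factor loci. Filled points passed an adjusted p of 0.05 and open ones did not; most open points lie under 50% GC, with Ddx24 and Senp3 above it.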

How the data were processed

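RNA-seq of 2 DMSO-induced and 2 uninduced MEL samples was used. Trizol extraction and Ribo-Zero depletion of ribosomal RNA are given per the labels' protocols. TopHat2 and GRCm38 are named per the submitters' processing notes, and the sources used here do not give the quantifier, annotation release, strandedness or depth. The deposited table holds 1 FPKM column per sample, unpooled. The unit was inferred from the file headers, which are those of a Cufflinks tracking table, and from values that are not whole and sum to 1055861 to 1325806 per sample. Without counts, no count model and no counting interval was used.

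The 12890 loci that reached 1 FPKM in 2 or more samples were fitted as log2(FPKM + 1) with limma 3.58.1 in R 4.3.3 (eBayes with trend), with group as the only term, two-sided, with p-values adjusted by Benjamini-Hochberg across those loci and a threshold of 0.05. Errors are limma's SE. On simulated data the share of false calls was above the nominal threshold in every run and small changes were mostly not called. Counts of calls may therefore include more false ones than the threshold states, and a locus that did not pass may still differ. The simulations changed far fewer loci than the 3377 called here, so their false share is not an estimate for these calls. Fold changes on this scale understate those of low genes. All 44 member loci passed the filter. Gene positions are from GENCODE M21 (GRCm38), promoters from RefSeq (GRCm38.p6). Of the lists beside the members, loci shared by several symbols were left out, and 4 genes were matched by RefSeq synonyms.

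Members and lists were chosen with earlier results of these data known. Named in full are, per role, the member with the most negative change, the most abundant, and every member that did not pass; others were added to complete complexes. Of other lists the most changed and most abundant called gene are named. The alternatives were other scalings, filters and pseudocount, a replicate block, removal of loci listed at 0, and leaving out each sample.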

Additional observations from a re-analysis of the deposited data

How the results depend on the processing

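The members' median log2 fold change lay between -1.56 and -1.26 under every alternative tried, and no member rose at the threshold in any of them. The count of members that fell was 24 under quantile normalization and with a pseudocount of 0.1, 25 under median-of-ratios scaling, 22 when samples were scaled without globins and the 10 most abundant loci, 25 with a filter at 5 FPKM and 25 without loci listed at 0. With no filter on low values limma called 30 loci in all, 0 members, 0 of the other 60S factors and 0 of the small-subunit factors; the cause was not tested. Leaving out 1 sample, with the filter applied to the 3 left, gave 187 to 2685 called loci, 0 to 27 members, 1 to 11 of the other 60S factors and 1 to 32 of the small-subunit factors, with the lowest counts without induced replicate 2. On the loci of the 4-sample filter, an alternative chosen after seeing the data, the called loci were 486 and 67 without induced replicates 1 and 2 and 30 and 14 without uninduced replicates 1 and 2, with 0 to 10 members, 0 to 1 of the other 60S factors and 0 to 6 of the small-subunit factors. The lone sample of a group is then assumed to vary like the other group, and the cause was not tested.

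Signs turned for loci that did not pass. Gnl2 was at 0.0601 under quantile normalization, 0.01 under scaling without the most abundant loci and -0.3011 to 0.1332 with 1 sample left out. Ddx24 was at 0.0747, 0.0192 and -0.234 to 0.0839 (0.0149 without induced replicate 1). Nvl was at 0.0268 under scaling without the most abundant loci and -0.4064 to 0.2783 with 1 sample left out, and the second Rpf1 locus ran between -1.192 and 0.1635. The cause was not tested.

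Same-numbered replicates are not stated to be paired. Their differences correlated at 0.17 across 12890 loci. With the replicate block 28 members fell, and 4238 loci were called in all. Depth is not given in the sources used here, so the precision of low values, such as Ddx51 or the second Rpf1 locus, could not be stated.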
